A study of Mus musculus with 8 samples.

Results

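The genes described here are 33 genes of ependymal cells and motile cilia, named by symbol from their known roles, of which 32 stand in a deposited table of 41128 genes. They were chosen with earlier results of these data known. Cfap126 is listed in that table under its older symbol 1700009P17Rik and is given separately. RNA-seq was made of the dissected corpus callosum of PLP-150Q mice, which carry a transgene for a mutant huntingtin fragment that is made in oligodendrocytes. The LAQ group (4 libraries, LAQ 5 to LAQ 8) received 5 mg/kg LAQ, read as the immunomodulator laquinimod, for 2 months, and the control group (4 libraries, control 1 to control 4) received purified water. Both groups were PLP-150Q mice, 3 months old at the start and 5 months old at collection, so no comparison with mice that lack the transgene can be made. The labels give no sex, litter or batch and do not say that each library is a separate mouse, although the design text names 4 mice per group; if libraries share a mouse, p-values measure variation among libraries alone, some of it technical.

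Ependymal cells line the brain ventricles, and the lateral ventricles lie directly beneath the corpus callosum. Each carries a tuft of motile cilia that moves cerebrospinal fluid. A motile cilium is built on a ring of microtubule doublets around a central pair. Dynein arms on the doublets make the force, radial spokes and the central apparatus regulate them, and nexin links hold neighbouring doublets together. Foxj1 is the transcription factor that switches on this set of genes, together with regulatory factor X (RFX) proteins, which bind a DNA element called the X-box.

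Promoter windows are shown because many of these genes share the X-box letters. RefSeq windows on GRCm38.p6, from 250 bases before to 50 bases after a gene's start, were found for 26 of the 33 genes (30 windows, since some genes have several starts), and not for Foxj1, Armc4, Lrrc6, Rsph1, Rsph4a, Ift80 or Rarres2. The X-box arm GTTGCC, searched on both strands, occurred in 15 of the 30 windows (50%), beside 12.5% of all 32851 promoter windows. The X-box palindrome, GTNNCC followed after any 2 bases by its reverse complement GGNNAC, occurred in 16.7% of the windows of these genes and in 1.88% of all windows. In 1 window, that of Pifo, the matches overlapped. A forkhead core, TGTTTAC on either strand, occurred in 3.33% of the windows of these genes and in 3.65% of all windows. The base composition of the windows was not matched. The sequences below run 5′ to 3′ along the gene's strand, with the X-box arm or palindrome in capitals. The first 5 belong to genes with an unadjusted p under 0.05 for LAQ over control, and they lie at chr8:116504765-116505064 on the plus strand (Dynlrb2), chr11:72361833-72362132 on the minus strand (Tekt1), chr2:18698772-18699071 on the plus strand (Spag6), chr17:46144151-46144450 on the minus strand (Rsph9) and chr3:106001448-106001747 on the minus strand (Pifo). Only windows with a match were taken for these. Of the genes not shown at that p, Ccdc153 holds an arm and Dnaic1 holds neither form. The other windows of Tekt1 and Pifo hold neither form. The windows shown for Tekt1, Spag6 and Pifo belong to starts inside the annotated gene, downstream of its outermost start. For Pifo the window at the outermost start is the one without a match. The other 2 sequences were picked by both their matches and their values, and a link between matches and values was not tested. Zmynd10 (chr9:107547054-107547353, plus strand) holds both forms and had nearly equal group means. Tmem212 (chr3:27896319-27896618, minus strand) holds neither form as searched and was among the genes with the smallest p-values. Near forms of the arm, such as the GGTAAC in the Tmem212 window, were not searched. Palindromes with another spacing were not searched either. In the Dynlrb2 window, GTTGCCtagcaac holds the arm and a near form of its reverse complement, and only the arm is marked.
Dynlrb2: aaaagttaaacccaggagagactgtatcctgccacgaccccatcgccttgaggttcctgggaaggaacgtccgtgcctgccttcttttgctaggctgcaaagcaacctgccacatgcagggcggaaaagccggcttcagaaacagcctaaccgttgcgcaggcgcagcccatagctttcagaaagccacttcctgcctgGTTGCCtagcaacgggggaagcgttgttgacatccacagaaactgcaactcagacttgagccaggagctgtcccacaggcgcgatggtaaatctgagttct
Tekt1: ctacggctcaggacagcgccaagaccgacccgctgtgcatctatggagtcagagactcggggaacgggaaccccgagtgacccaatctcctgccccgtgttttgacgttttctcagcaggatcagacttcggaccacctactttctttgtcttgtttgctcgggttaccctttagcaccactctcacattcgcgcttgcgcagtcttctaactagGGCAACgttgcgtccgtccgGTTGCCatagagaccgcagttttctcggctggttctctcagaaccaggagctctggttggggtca
Spag6: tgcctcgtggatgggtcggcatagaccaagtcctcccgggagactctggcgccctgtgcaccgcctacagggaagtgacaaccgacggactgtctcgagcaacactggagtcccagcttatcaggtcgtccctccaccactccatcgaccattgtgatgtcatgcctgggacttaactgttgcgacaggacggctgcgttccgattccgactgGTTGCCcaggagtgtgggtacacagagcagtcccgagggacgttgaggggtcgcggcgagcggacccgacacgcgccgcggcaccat
Rsph9: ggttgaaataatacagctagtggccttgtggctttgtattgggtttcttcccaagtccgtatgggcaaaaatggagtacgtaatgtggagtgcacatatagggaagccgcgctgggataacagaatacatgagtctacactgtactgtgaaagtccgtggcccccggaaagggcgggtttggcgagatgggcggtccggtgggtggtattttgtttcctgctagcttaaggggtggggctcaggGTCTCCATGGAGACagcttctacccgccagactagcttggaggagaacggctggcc
Pifo: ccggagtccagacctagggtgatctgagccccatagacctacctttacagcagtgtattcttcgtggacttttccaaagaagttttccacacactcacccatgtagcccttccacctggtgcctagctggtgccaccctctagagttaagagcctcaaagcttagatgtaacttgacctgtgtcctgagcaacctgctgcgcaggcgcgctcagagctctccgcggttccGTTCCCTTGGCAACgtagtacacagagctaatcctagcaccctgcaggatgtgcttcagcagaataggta
Zmynd10: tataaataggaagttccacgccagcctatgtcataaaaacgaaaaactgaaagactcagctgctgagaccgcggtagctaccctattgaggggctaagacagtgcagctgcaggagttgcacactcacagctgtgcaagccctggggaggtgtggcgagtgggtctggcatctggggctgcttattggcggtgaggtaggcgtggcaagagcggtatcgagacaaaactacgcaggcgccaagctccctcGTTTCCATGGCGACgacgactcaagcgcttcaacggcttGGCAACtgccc
Tmem212: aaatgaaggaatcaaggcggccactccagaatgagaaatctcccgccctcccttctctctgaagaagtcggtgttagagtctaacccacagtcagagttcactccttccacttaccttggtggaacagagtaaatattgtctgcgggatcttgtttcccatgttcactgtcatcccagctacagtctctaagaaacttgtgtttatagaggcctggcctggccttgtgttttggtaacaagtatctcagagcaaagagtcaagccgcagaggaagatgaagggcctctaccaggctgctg

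**Figure D1:**
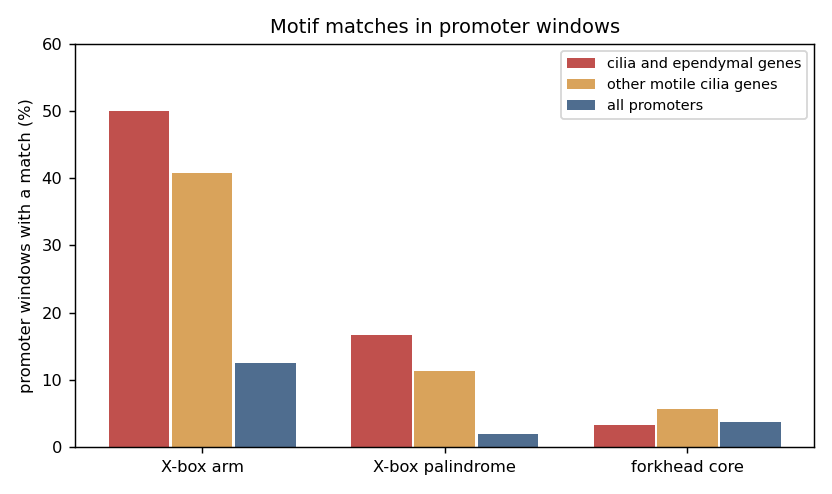
Share of promoter windows (y axis, percent) with a match to each motif (x axis) among the 26 of 33 genes of cilia and ependyma that have a window, other motile cilia genes with their regulators, and all promoters. The X-box arm stood in 50%, 40.8% and 12.5% of these windows, and the forkhead core in 3.33%, 5.63% and 3.65%.

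The share with the X-box arm was 50% among the 10 windows of genes with an unadjusted p under 0.05 and also 50% among the 20 windows of the others. Counted by gene, it was 62.5% of 8 genes and 55.6% of 18 genes. The palindrome stood in 20% of the 10 windows and 15% of the 20 windows. Foxj1, Rsph1 and Ift80, also under that p, had no window. These shares were not compared by a test. A match is a run of letters and not a measured binding site.

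Counts ranged from 8790749 to 12021429 per library, and the 32 genes together took 13251 counts over the LAQ libraries and 10440 over the control libraries. Values are CPM, counts scaled to library size after TMM normalization. LAQ 7 stood apart over the whole table: the chi-square per degree of freedom between libraries was 16.1 to 25.6 for its pairs with the other LAQ libraries, 7.87 to 8.93 among those and 4.24 to 6.07 among control libraries. Of the 32 genes, 31 passed the filter on low counts and were tested among 15771 genes. Of these 31, 27 had at least 10 reads in every control library, and Dnah11, Armc4, Enkur and Tekt4 did not. Mia, which encodes a secreted protein, did not pass: it had 3, 2, 1 and 0 reads in LAQ 5 to LAQ 8 and 0 reads in each control library, where a count of 0 allows up to 0.251 to 0.341 CPM. The other defining ependymal markers Foxj1, Tmem212, Ccdc153, Pifo and Rarres2 were detected in all 8 libraries. In this bulk tissue, more ependymal cells, more RNA per ependymal cell and RNA from other cells of the dissected piece, such as choroid plexus, cannot be told apart.

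The genes of motile cilia had mostly higher levels in LAQ than in control, with the smallest p-values in Foxj1, the central apparatus gene Spag6, the ependymal gene Tmem212, the dynein light chain Dynlrb2 and the tektin Tekt1, each between 1.56-fold and 1.88-fold. No gene among the 31 passed the test over all genes. By edgeR's quasi-likelihood test with Benjamini-Hochberg adjustment, 0 of 31 had an adjusted p under 0.05 (0% of all 15771 genes did). The adjusted p of the 31 ran from 0.229 to 0.987. DESeq2 and limma voom called 0 of the 31 as well. Of all genes it adjusted, DESeq2 called 0.177% higher and 0.669% lower, and limma voom called 0 genes in all. At an unadjusted p under 0.05, 11 were higher and 0 lower in LAQ, beside 4.77% of all tested genes higher and 6.33% lower. The log2 fold change was positive for 27 of 31, beside 49.7% of all tested genes, with a median of 0.40 beside -0.0012 over all of them. Because the genes were chosen with earlier results of these data known, these counts describe the list and are not an independent comparison. For 5 genes (Spag6, Tmem212, Dynlrb2, Dnaic1 and Rsph4a) the 4 LAQ libraries lay above the 4 control libraries without overlap, and for 0 below, beside 2.78% and 3.61% of all tested genes.

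**Figure D2:**
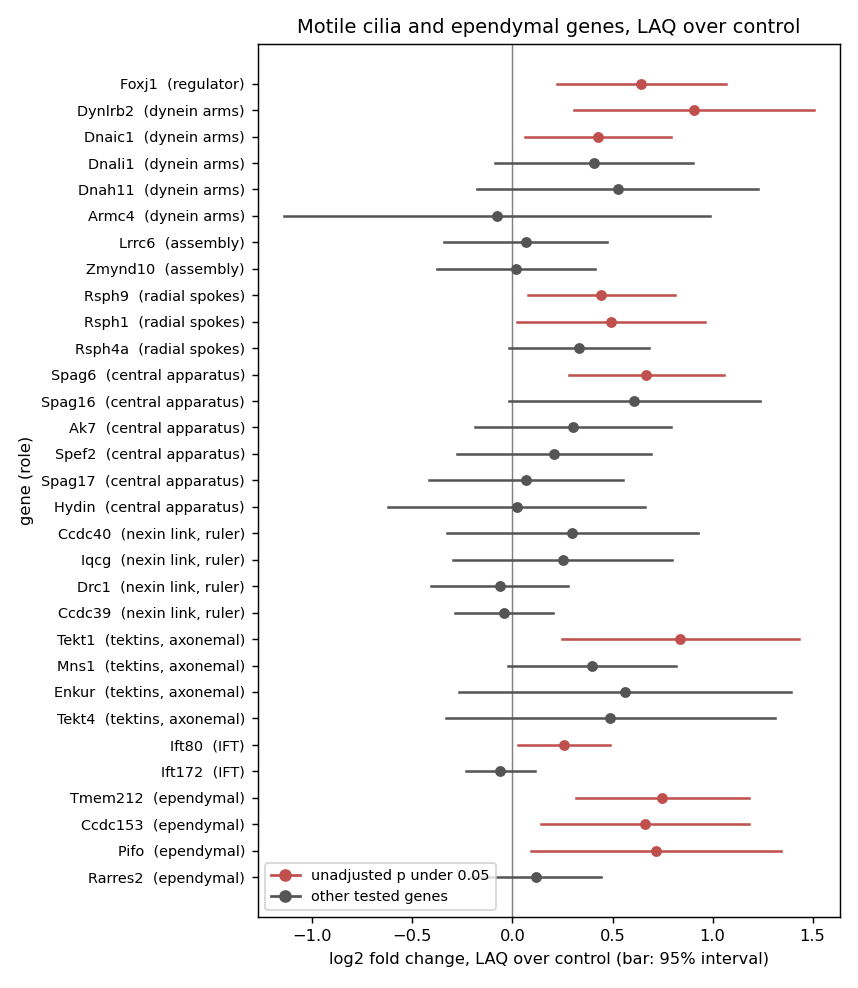
log2 fold change of LAQ over control (x axis) for each of the 31 tested genes, grouped by role (y axis), with the 95% interval of the edgeR fit as a bar. The intervals of 11 genes, in red, lie above 0, and 4 genes have a point estimate below 0.

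Foxj1 lies on chromosome 11 from 116330704 to 116335399 (GRCm38, GENCODE M21, 3 exon blocks, protein-coding). It stood at 14.7, 12.7, 12.8 and 10.3 CPM in LAQ 5 to LAQ 8, against 9.17, 5.90, 6.41 and 10.5 CPM in control 1 to control 4. Control 4 overlapped the lowest LAQ library, LAQ 8, and the other control libraries were below all 4 LAQ libraries. The means were 12.6 ± 1.79 CPM in LAQ and 8.00 ± 2.21 CPM in control (SD, n = 4 each). On the log2 scale LAQ was higher by 0.64 ± 0.19 (SE, edgeR adjusted p = 0.278).

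Of 5 dynein arm genes, 4 had a positive log2 fold change. Dynlrb2, a roadblock-type light chain (chromosome 8, 116504974 to 116515915), stood at 3.91, 3.78, 2.64 and 5.72 CPM in LAQ 5 to LAQ 8, against 2.58, 1.67, 1.83 and 2.32 CPM in control 1 to control 4. LAQ 8 was the highest and LAQ 7 lay just above control 1. Its log2 fold change was 0.91 ± 0.27 (SE, edgeR adjusted p = 0.278). Dnaic1, an intermediate chain of the outer arm, stood at 8.38, 8.82, 7.66 and 10.2 CPM in LAQ, against 7.55, 5.68, 5.38 and 7.28 CPM in control, again without overlap but with LAQ 7 next to control 1. Dnali1, a light intermediate chain of the inner arm, stood at 5.05, 5.85, 3.95 and 3.33 CPM in LAQ, against 3.25, 2.78, 4.12 and 3.56 CPM in control. LAQ 5 and LAQ 6 were above every control library, while LAQ 7 and LAQ 8 were within their range. Dnaic1 had a log2 fold change of 0.43 ± 0.17 and Dnali1 one of 0.41 ± 0.23 (SE; edgeR adjusted p = 0.390 and 0.522), and the value of Dnali1 was 0.26 without LAQ 6. Dnah11, a heavy chain of the outer arm, had a log2 fold change of 0.53 ± 0.32 (SE) on 7 to 26 reads per library. Armc4, which docks the outer arm, stood apart in control 1 with 2 reads, against 19, 19, 24 and 20 reads in LAQ 5 to LAQ 8 and 26, 25 and 26 reads in control 2 to control 4. Its log2 fold change was -0.08 ± 0.49 (SE), and it was -0.46 without control 1, 0.15 without control 2 and 0.13 without control 3.

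Zmynd10 and Lrrc6 encode cytoplasmic factors that assemble dynein arms before they enter the cilium, and their levels were nearly equal in the groups. Zmynd10 stood at 5.53, 6.57, 7.58 and 5.72 CPM in LAQ 5 to LAQ 8, against 7.55, 5.46, 6.86 and 5.30 CPM in control 1 to control 4. Lrrc6 stood at 3.72, 4.86, 3.62 and 4.26 CPM in LAQ, against 4.11, 3.79, 3.55 and 4.22 CPM in control. The groups overlapped for both genes. The log2 fold change was 0.02 for Zmynd10, with a 95% interval of -0.38 to 0.41, and 0.07 for Lrrc6, with one of -0.34 to 0.47. Without LAQ 7 Zmynd10 was at -0.08, and without LAQ 6 Lrrc6 was at -0.02.

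Radial spoke genes had higher means in LAQ for 3 of 3 members, and LAQ 7 was the lowest LAQ library for each. Rsph9 (chromosome 17, 46122035 to 46144216), a spoke head protein, stood at 22.6, 19.7, 13.6 and 23.3 CPM in LAQ 5 to LAQ 8, against 12.5, 13.4, 15.9 and 16.2 CPM in control 1 to control 4. LAQ 7 fell inside the control range and the other LAQ libraries were above it. Rsph1, also of the spoke head, stood at 14.6, 11.1, 8.57 and 17.3 CPM in LAQ, against 9.94, 6.79, 9.38 and 10.2 CPM in control, with the same library low. Rsph4a, a further head protein, stood at 8.10, 9.36, 7.91 and 11.6 CPM in LAQ, against 7.55, 7.80, 7.32 and 6.70 CPM in control, with no overlap and LAQ 8 well above the rest. Their log2 fold changes were 0.44 ± 0.17, 0.49 ± 0.21 and 0.33 ± 0.16 (SE), with edgeR adjusted p of 0.372, 0.434 and 0.466. Without LAQ 7, Rsph9 had a log2 fold change of 0.59 and an edgeR adjusted p of 0.0380, the only one of the 31 genes past the threshold in that fit, in which 0.736% of all tested genes were called higher and 1.4% lower. Without LAQ 8 the log2 fold changes were 0.36 for Rsph9, 0.32 for Rsph1 and 0.21 for Rsph4a.

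In the central apparatus, 6 of 6 genes had a positive log2 fold change, from 0.02 to 0.67. Spag6 (chromosome 2, 18694032 to 18750413), an armadillo repeat protein of the central pair, stood at 13.4, 15.7, 11.1 and 11.8 CPM in LAQ 5 to LAQ 8, against 6.403, 6.91, 9.27 and 10.01 CPM in control 1 to control 4. Every LAQ library was above every control library, with LAQ 7 nearest to control 4. The means were 13.0 ± 2.03 CPM in LAQ and 8.15 ± 1.76 CPM in control (SD, n = 4 each). On the log2 scale the difference was 0.67 ± 0.18 (SE, edgeR adjusted p = 0.229). Spag16, a WD repeat protein of the central apparatus, stood at 2.67, 3.24, 3.54 and 4.37 CPM in LAQ, against 2.29, 1.45, 1.72 and 3.39 CPM in control. Ak7, an adenylate kinase needed for ciliary beating, stood at 3.52, 6.03, 5.77 and 4.58 CPM in LAQ, against 3.15, 4.12, 3.89 and 4.97 CPM in control. In these genes control 4 reached into the LAQ range, and for Ak7 control 2 and control 3 did as well. Their log2 fold changes were 0.61 ± 0.29 for Spag16 and 0.30 ± 0.22 for Ak7 (SE; edgeR adjusted p = 0.457 and 0.650), and 0.20 for Ak7 without LAQ 6. Spef2, Spag17 and Hydin, large proteins of the same structure, had log2 fold changes of 0.21, 0.07 and 0.02. Their means were 4.26, 3.64 and 1.77 CPM in LAQ, against 3.68, 3.48 and 1.73 CPM in control. With 1 library left out, Spef2 ranged from 0.09 to 0.34, Spag17 from -0.05 (without LAQ 5) to 0.19 and Hydin from -0.12 (without LAQ 6) to 0.19, so the direction of Spag17 and Hydin rests on single libraries.

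The nexin link and ruler genes showed no common direction. Drc1, a scaffold of the nexin-dynein regulatory complex, stood at 11.8, 16.4, 13.9 and 16.01 CPM in LAQ 5 to LAQ 8, against 19.1, 15.1, 14.3 and 12.2 CPM in control 1 to control 4. Iqcg, a subunit of that complex, stood at 5.62, 5.04, 4.28 and 3.74 CPM in LAQ, against 4.11, 3.68, 5.61 and 2.48 CPM in control. Ccdc40, which with Ccdc39 forms the ruler that spaces the arms along the doublet, stood at 6.19, 7.20, 4.69 and 4.89 CPM in LAQ, against 2.39, 5.12, 7.21 and 4.14 CPM in control. The groups overlapped in all 3, and control 1 was the highest library for Drc1 but the lowest for Ccdc40. The log2 fold changes were -0.06 ± 0.16 for Drc1, 0.25 ± 0.25 for Iqcg and 0.30 ± 0.29 for Ccdc40 (SE; edgeR adjusted p = 0.915, 0.757 and 0.747). Drc1 was at 0.07 without control 1 and at 0.02 without LAQ 5, Iqcg at 0.08 without control 4, and Ccdc40 at 0.08 without control 1. Ccdc39 averaged 17.9 ± 1.81 CPM in LAQ and 18.4 ± 1.59 CPM in control (SD, n = 4 each), and the fitted difference was -0.04 on the log2 scale with a 95% interval of -0.29 to 0.20.

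**Figure D3:**
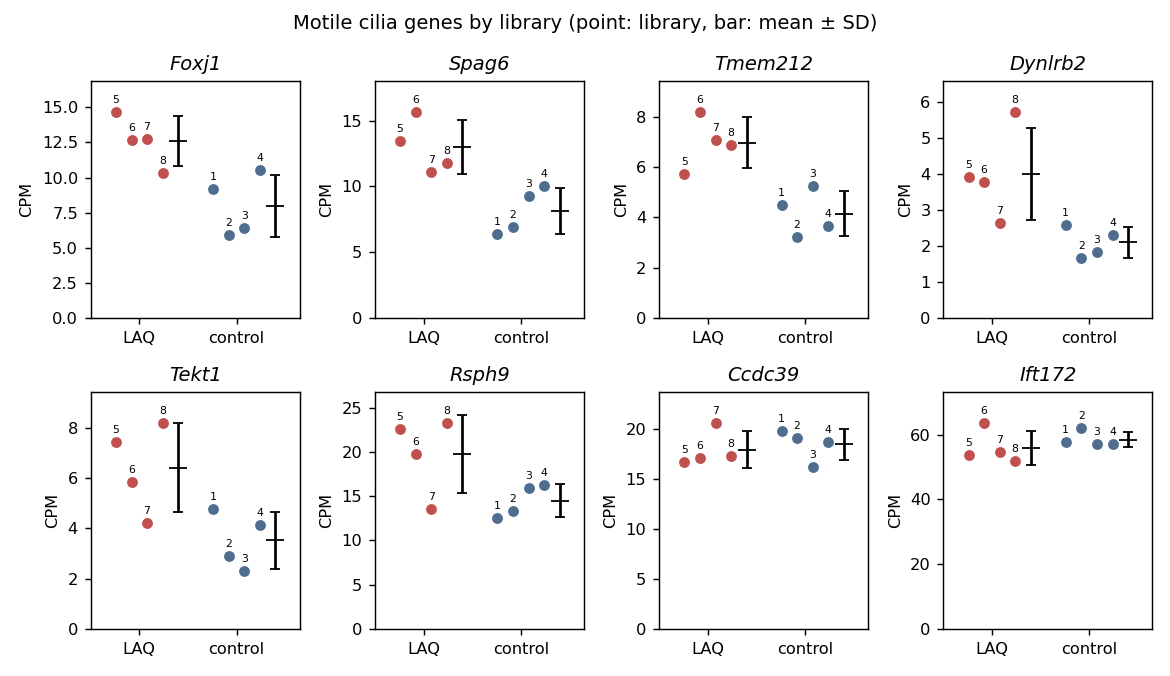
Level (y axis, CPM) of 8 genes in each LAQ and control library (numbered points), with the mean ± SD of each group as a bar. The groups do not overlap for Spag6, Tmem212 and Dynlrb2, whereas their ranges do for Foxj1, Tekt1, Rsph9, Ccdc39 and Ift172.

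The tektins and inner axonemal proteins had a positive log2 fold change in 4 of 4 genes. Tekt1 (chromosome 11, 72344722 to 72362442), a filament protein of the doublet, stood at 7.43, 5.85, 4.20 and 8.21 CPM in LAQ 5 to LAQ 8, against 4.78, 2.90, 2.29 and 4.14 CPM in control 1 to control 4. LAQ 7 lay below control 1, and the other LAQ libraries were above every control library. Mns1, a protein inside the doublet, stood at 6.19, 7.29, 7.08 and 7.80 CPM in LAQ, against 6.403, 3.56, 5.95 and 5.54 CPM in control. Enkur, which also binds inside the doublet, stood at 1.81, 2.34, 2.31 and 2.81 CPM in LAQ, against 1.05, 0.557, 2.06 and 2.48 CPM in control. Control 2 was the lowest library for Mns1 and Enkur. Tekt1 had a log2 fold change of 0.84 ± 0.27, Mns1 of 0.40 ± 0.19 and Enkur of 0.56 ± 0.38 (SE; edgeR adjusted p = 0.302, 0.467 and 0.612). Without control 2 Mns1 was at 0.25 and Enkur at 0.31. Tekt4, a related tektin, averaged 1.56 CPM in LAQ and 1.12 CPM in control, a log2 fold change of 0.49 ± 0.38 (SE), which was 0.23 without LAQ 6 and 0.79 without control 1.

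The intraflagellar transport (IFT) genes, which motile and primary cilia share, had the highest CPM of these genes and small differences. Ift80 stood at 30.4, 31.8, 37.7 and 27.5 CPM in LAQ 5 to LAQ 8, against 26.9, 25.6, 28.6 and 25.7 CPM in control 1 to control 4. Ift172 stood at 53.8, 63.7, 54.6 and 51.9 CPM in LAQ, against 57.8, 61.9, 57.0 and 57.0 CPM in control. Only LAQ 8 of the LAQ libraries reached the control range for Ift80, while for Ift172 LAQ 5, LAQ 7 and LAQ 8 were below every control library and LAQ 6 was above all of them. The log2 fold changes were 0.26 ± 0.11 for Ift80, or 0.17 without LAQ 7, and -0.06 ± 0.08 for Ift172 (SE; edgeR adjusted p = 0.408 and 0.824). The 95% interval of Ift172 was -0.23 to 0.11.

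Among the ependymal markers, Tmem212 (chromosome 3, 27866066 to 27896368), a membrane protein, stood at 5.72, 8.19, 7.08 and 6.86 CPM in LAQ 5 to LAQ 8, against 4.49, 3.23, 5.26 and 3.64 CPM in control 1 to control 4. Ccdc153, a coiled-coil protein used to mark ependymal cells, stood at 4.86, 7.74, 5.02 and 7.59 CPM in LAQ, against 4.40, 3.56, 5.15 and 2.90 CPM in control. Pifo, which acts at the base of the cilium, stood at 3.05, 2.25, 4.12 and 4.26 CPM in LAQ, against 2.77, 2.12, 1.37 and 1.99 CPM in control. Tmem212 did not overlap between the groups, control 3 lay above LAQ 5 and LAQ 7 for Ccdc153, and control 1 lay above LAQ 6 for Pifo. The log2 fold changes were 0.75 ± 0.20, 0.66 ± 0.24 and 0.72 ± 0.29 (SE), with edgeR adjusted p of 0.229, 0.357 and 0.396. Rarres2, which encodes the secreted protein chemerin and is made by other cells too, averaged 23.5 ± 4.60 CPM in LAQ and 21.7 ± 2.97 CPM in control (SD, n = 4 each), and the fitted log2 difference was 0.12 ± 0.15 (SE), or 0.035 to 0.22 with 1 library left out. Cfap126, a protein of cilium docking counted under its older symbol, averaged 2.09 ± 0.306 CPM in LAQ and 1.79 ± 0.436 CPM in control (SD, n = 4 each), and the fitted log2 difference was 0.23 ± 0.27 (SE, edgeR adjusted p = 0.797).

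Per kilobase of annotated exon, the genes differed widely in level. The highest were Rsph9 at 12.4 CPM per kilobase in LAQ and 9.05 in control, Tmem212 at 9.72 and 5.81, Rsph1 at 9.38 and 6.61, Rarres2 at 8.87 and 8.17 and Ift172 at 8.46 and 8.83. The lowest tested genes were Hydin, at 0.0979 in LAQ and 0.0959 in control, and Dnah11, at 0.147 and 0.0994, whose exons are among the longest. Exons of 11 of the 32 genes overlap another gene on the opposite strand, among them Spag6 with Gm20539, Zmynd10 with Gm34106, Dnaic1 with Enho, Dnali1 with Gnl2, Iqcg with Lrch3, Ccdc39 with Ttc14, Mns1 with Tex9 and Rarres2 with Lrrc61. The strand setting of the counting was not given in the sources used here, so these counts are uncertain. Mia shares exons with Gm21983 on its own strand.

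The libraries did not all carry the difference through the same genes. Relative to each gene's control mean, the median of the 31 genes was 1.21, 1.31, 1.18 and 1.27 in LAQ 5 to LAQ 8, against 1.05, 0.867, 1.06 and 1.05 in control 1 to control 4. The same median over all tested genes was 0.990 to 0.998 in the 8 libraries. LAQ 8 was the highest of the 8 libraries for 12 of the 31 genes and LAQ 6 for 8, beside 14.4% and 11.8% of all tested genes. Control 2 was the lowest for 12 of the 31, beside 11.8% of all tested genes. Within the LAQ group, LAQ 8 was the highest for 14 genes and LAQ 6 for 11, while LAQ 7 was the lowest for 12, beside 24.3%, 21.5% and 29.7% of all tested genes. LAQ 8 led for Dynlrb2, Dnaic1, Tekt1 and the 3 radial spoke genes, whereas LAQ 6 led for Spag6, Tmem212 and Ccdc153, and LAQ 5 led for Foxj1.

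**Figure D4:**
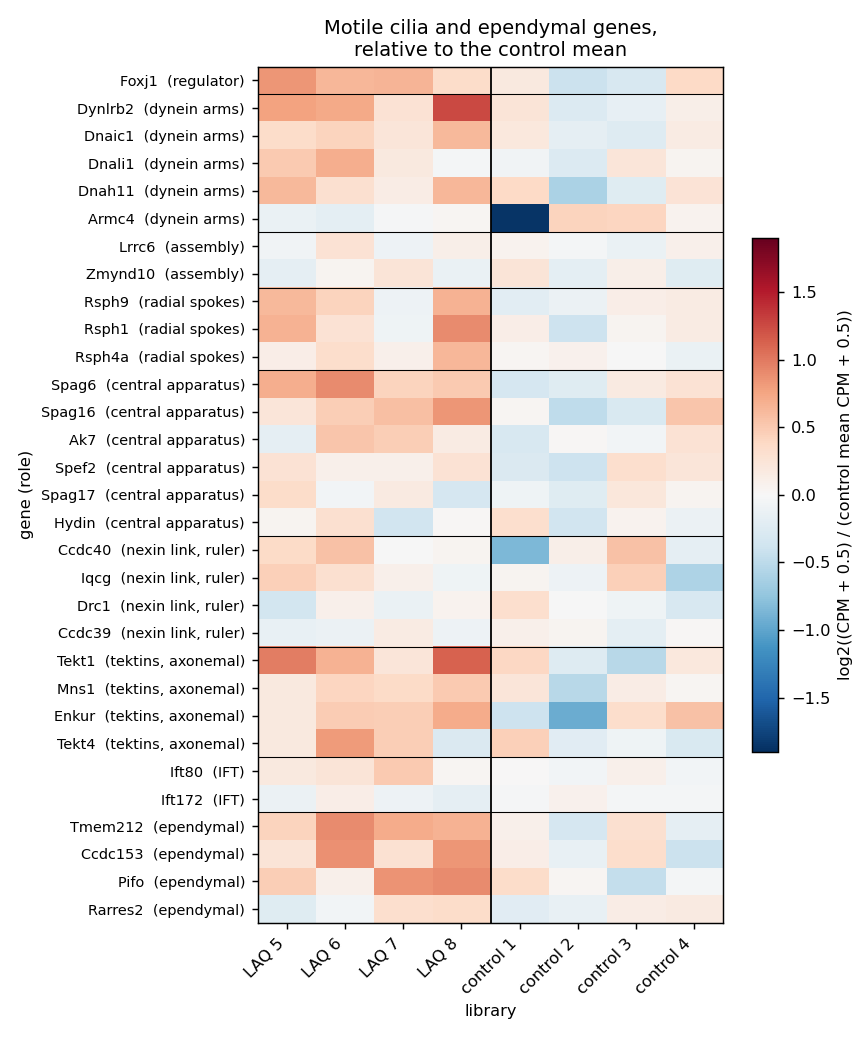
log2 of CPM + 0.5 relative to the control mean + 0.5 (colour) for the 31 tested genes (rows, by role) in the 4 LAQ and 4 control libraries (columns). Red prevails in the LAQ columns, and LAQ 7 is paler than LAQ 8 for the radial spoke genes, Dynlrb2 and Tekt1.

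Other genes of the motile cilia pathway were counted from lists written down beside the 33, also with earlier results of these data known. Of 9 regulators of the motile program, 8 were tested and 7 had a positive log2 fold change, with 2 higher at an unadjusted p under 0.05. Over all tested genes, 49.7% were positive and 4.77% were higher at that p. Rfx2, an RFX factor of multiciliated cells, stood at 10.4, 8.997, 7.82 and 10.1 CPM in LAQ 5 to LAQ 8, against 5.92, 7.13, 5.03 and 4.14 CPM in control 1 to control 4, without overlap. LAQ was higher by 0.75 ± 0.19 on the log2 scale (SE), at an adjusted p of 0.207 by edgeR and 0.0495 by DESeq2, which called 0.177% of the genes it adjusted as higher. Rfx3 had a log2 fold change of 0.55 ± 0.22 and Myb of 0.58 ± 0.33 (SE), while Mcidas, the upstream multicilin gene, lay below the filter at 0.431 CPM in LAQ and 0.713 CPM in control.

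Of 68 further motile cilia genes, 66 were found, 57 were tested and 46 were positive in log2 fold change, and their median was 0.22. At an unadjusted p under 0.05, 9 were higher and 3 lower, beside 4.77% and 6.33% of all tested genes. With edgeR or DESeq2, 0 genes of this list passed the test over all genes. Of all genes, edgeR called 0%, and DESeq2 called 0.177% higher and 0.669% lower. Cfap206 (a spoke protein listed as 1700003M02Rik), Odf3b and the kinase Stk33 had the smallest p-values, with log2 fold changes of 0.71 ± 0.22, 0.67 ± 0.21 and 1.00 ± 0.33 (SE; edgeR adjusted p = 0.278, 0.283 and 0.311). Of 29 transport and Bardet-Biedl genes that primary cilia also use, 19 were positive, and the median log2 fold change was 0.03. Bbs7, a subunit of the Bardet-Biedl complex, stood at 0.46 ± 0.10 (SE, adjusted p = 0.181 by edgeR and 0.0342 by DESeq2), Arl6 at 0.25 and Ift20 at -0.20. No test compared these lists with the 33 genes.

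Markers of neighbouring tissue were also counted, and edgeR called 0 genes in each of these lists. The summed CPM of the 32 genes was 295, 319, 296 and 313 in LAQ 5 to LAQ 8, against 261, 243, 266 and 265 in control 1 to control 4, without overlap. The choroid plexus, which hangs from the ventricle wall beside the ependyma, gave a sum over 15 markers of 3921, 1400, 1784 and 3747 CPM in LAQ, against 2216, 421, 855 and 2719 CPM in control, with 14 of 15 positive in log2 fold change, 1 higher at an unadjusted p under 0.05 (beside 4.77% of all tested genes), and no marker at 0 throughout. The median log2 fold change of this list was 0.70. Its members Kcne2, F5, Aqp1 and Ttr had log2 fold changes of 1.02 ± 0.43, 0.71 ± 0.36, 0.94 ± 0.49 and 0.84 ± 0.51 (SE). LAQ 5 and LAQ 8 were above the control range of the choroid plexus sum, and LAQ 6 and LAQ 7 were inside it. LAQ 6 had the highest sum of cilia genes, and control 2 was the lowest library for both sums.

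At an unadjusted p under 0.05, 4.77% of all tested genes were higher and 6.33% lower, and 49.7% were positive in log2 fold change. The hippocampal list had 7 of 7 members positive, 5 of them at an unadjusted p under 0.05, a median log2 fold change of 1.04 and summed levels of 489 to 727 CPM in LAQ and 345 to 496 CPM in control. The cortical excitatory list had 1 of 9 positive, 4 lower at an unadjusted p under 0.05 and 2 called lower by DESeq2 (0.669% of the genes it adjusted were), with 1015 to 1779 CPM in LAQ and 1638 to 1894 CPM in control, and LAQ 7 was its lowest library. The subventricular and neuroblast list had 10 of 11 positive, 3 higher and 0 lower at an unadjusted p under 0.05, and a median log2 fold change of 0.08. Its sums were 85.2 to 115 CPM in LAQ and 81.6 to 94.4 CPM in control, led by Sp8 at a log2 fold change of 1.26 ± 0.38 (SE, edgeR adjusted p = 0.278). The meningeal list had 3 of 8 positive, with 108 to 193 CPM in LAQ and 118 to 209 CPM in control. The tanycyte list had 3 of 5 tested members positive, with 197 to 273 CPM in LAQ and 208 to 246 CPM in control, and its defining gene Rax stood at 0.223 CPM in LAQ and 0.262 CPM in control. The myelin list had 12 of 12 positive, 7 higher at an unadjusted p under 0.05 and 1 called higher by DESeq2 (0.177% of the genes it adjusted were). Its sums were 13028 to 17035 CPM in LAQ and 12297 to 14066 CPM in control. The astrocyte list had 2 of 9 positive and 2 lower at an unadjusted p under 0.05, with 5433 to 5954 CPM in LAQ and 5530 to 6111 CPM in control. The part of the choroid plexus and of these other tissues in the values of the cilia genes was not tested.

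**Figure D5:**
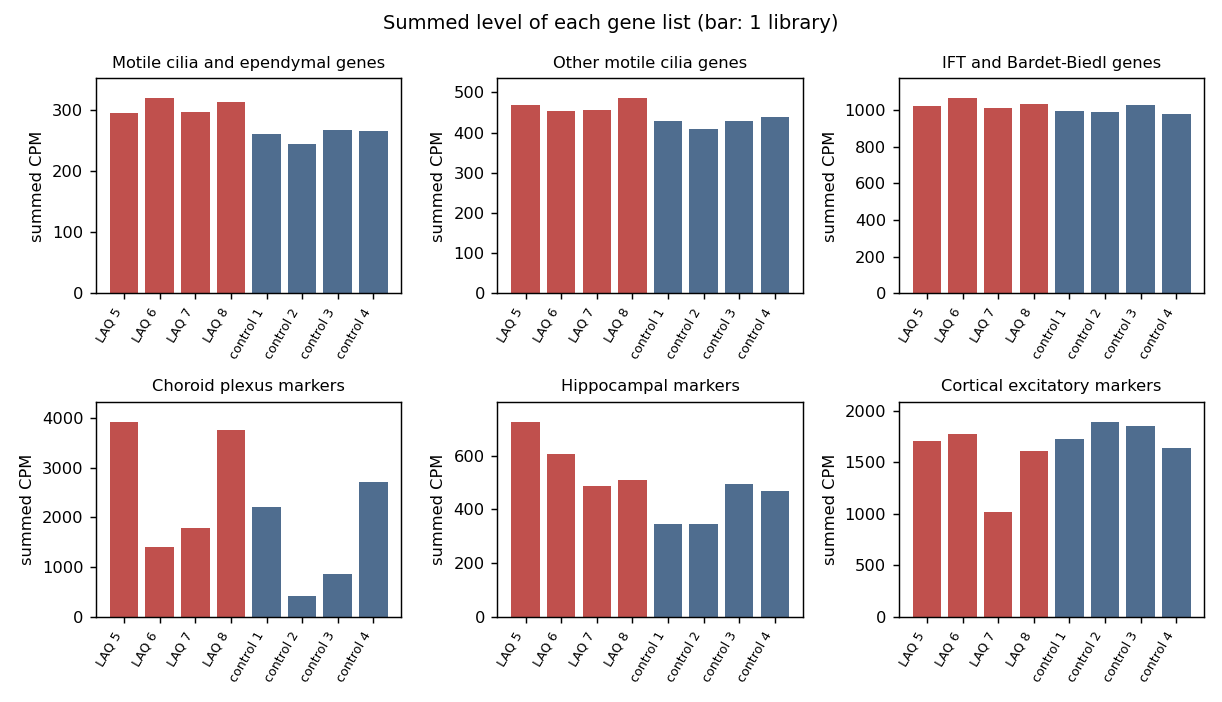
Summed CPM (y axis) of 6 gene lists in each library (x axis), with 1 bar per library and LAQ in red. The sums of the cilia and ependymal genes were 295 to 319 CPM in LAQ and 243 to 266 CPM in control, while the choroid plexus sums overlapped.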

How the data were processed

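Poly(A) RNA of flash-frozen corpus callosum was sequenced in 8 libraries, per the labels' protocols. The authors deposited raw counts per gene symbol and a normalized signal that is the deposited count divided by 1 size factor per library (largest relative deviation 5.1e-15, checked on the tables). The submitters' processing notes name bcl2fastq 2.17.1.14, STAR 2.5.2b, HTSeq, DESeq2 1.10.1 and GRCm38.p3. For the annotation release and the strand setting, nothing is given in the sources used here. All 8 columns were mapped from the titles.

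Genes were kept by filterByExpr (minimum count 10, minimum total count 15). LAQ was compared with control by edgeR 4.0.16's quasi-likelihood test with TMM factors (limma 3.58.1, R 4.3.3), two-sided, without covariates, adjusted over all 15771 genes at 0.05. The SE is the log2 fold change divided by the square root of F. Intervals are at 95%. The limit that a count of 0 allows uses 3 counts and covers counting error only. Alternatives were DESeq2 1.42.0, voom, robust edgeR, other scalings and filters, and leaving out each library. The steps were tested on simulated data. Exon lengths and positions came from GENCODE M21 (GRCm38), promoters from RefSeq (GRCm38.p6), and figures from matplotlib 3.10.9.

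The genes and lists were chosen with earlier results of these data known. Library values are given for Foxj1 and, in each role, for up to 3 genes of smallest p, and up to 3 genes of each other list are named, with Ttr. Of 183 genes on the other lists, 169 matched the table by symbol and 12 by an older or newer symbol. In each group no pair of libraries differed by less than sampling noise (chi-square per degree of freedom at least 4.24, highest for pairs with LAQ 7).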

Additional observations from a re-analysis of the deposited data

Results flagged for a closer look

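Of 66 sets of 4 values examined (32 genes and their sum, in each group), 2 held a library far from the other 3, where chance flags about 1 in 20. Ccdc39 stood at 20.6 CPM in LAQ 7, with the nearest LAQ library at 17.3 CPM. Ift172 stood at 61.9 CPM in control 2, with the nearest control library at 57.8 CPM. Neither gene had an unadjusted p under 0.05 for LAQ over control.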

How the results depend on the processing

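No paired analysis was possible because the titles number the control libraries 1 to 4 and the LAQ libraries 5 to 8, so the groups share no number. The count of genes with an adjusted p under 0.05 over the whole table was 0 by edgeR (1750 at an unadjusted p under 0.05), 25 without an expression filter and 129 with DESeq2; leaving out 1 library gave 0 to 339, and the 339 came without LAQ 7. Among the 31 genes of cilia and ependyma, that count was 0 under every scaling, filter and test run with all 8 libraries. It was 0 to 1 when 1 library was left out, with Rsph9 called without LAQ 7, and 3 (Rsph9, Spag6 and Rsph1) with DESeq2 without LAQ 7, a fit chosen after seeing the data, in which 2.97% of the genes adjusted were called higher. The number without overlap and higher in LAQ was 5, beside 2.78% of all tested genes. It was 5 to 8 with 1 library left out, with 8 without LAQ 7 or control 1. Fewer libraries make overlap rarer by construction, and the share of all tested genes in those fits is not given here, so the rise cannot be judged. The number with a positive log2 fold change was 25 to 28 over the alternatives. The median log2 fold change of 0.40 was 0.26 to 0.45 with 1 library left out, lowest without LAQ 6. The log2 ratio of summed CPM was 0.24, and 0.22 to 0.26 with 1 library left out. Of 345 fits of the 23 genes given by library, 338 kept their direction and side of the threshold, 1 passed it (Rsph9) and 6 changed sign: Drc1 at 0.02 without LAQ 5 and 0.070 without control 1 (range -0.15 to 0.070), Lrrc6 at -0.025 without LAQ 6 (range -0.025 to 0.12), and Zmynd10 at -0.080, -0.04 and -0.05 without LAQ 7, control 2 and control 4 (range -0.080 to 0.12). Among the other 8 tested genes, leaving out 1 library changed the sign of Armc4, Spag17 and Hydin. The cause of the other shifts was not tested. Other scalings moved the median of all genes to between -0.0027 and 0.0028. Depth limits the genes of few reads: the 95% interval of the log2 fold change was -0.18 to 1.23 for Dnah11 and -0.27 to 1.39 for Enkur.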
